A study of Mus musculus with 4 samples.

Results

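Wnt ligands, Frizzled receptors, secreted Wnt inhibitors and the β-catenin machinery were examined in live CD45- cells of B16-OVA melanomas after sorting, with 37 of the 750 gene probes of a NanoString cancer pathway panel. The 37 members were taken by name, as probes beginning with Wnt, Fzd, Dkk, Sfrp, Axin or Tcf7 together with Apc, Amer1, Ctnnb1, Gsk3b, Lef1, Wif1 and Nkd1, a rule that uses names and no measured value. They comprised 15 ligands, 6 receptors, 7 secreted inhibitors and 9 members of the intracellular core. The question put to these samples was how the tumor cells themselves differ when Blimp1 is lost from regulatory T (Treg) cells.

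There were 2 samples from Prdm1fl/flFoxP3YFP-Cre (KO) mice and 2 from FoxP3YFP-Cre (WT) mice on the C57BL/6 strain. In KO mice the Cre recombinase, driven by Foxp3, removes Prdm1, the gene encoding Blimp1, from Foxp3+ cells, and WT mice carry the same Cre allele without the floxed gene. All mice received cells of the mouse melanoma line B16 expressing ovalbumin (OVA) under the skin at day 0, with NP-OVA given into the peritoneum in complete adjuvant at day 0 and in incomplete adjuvant at day 7, and tumors had grown to at most 1.5 cm3 at sorting. The CD45- cells that were sorted are not the Foxp3+ cells in which the gene was deleted, and the Prdm1 probe, at 9 and 6 counts in KO samples and 9 and 9 in WT samples, lay below background in each of them and checks neither deletion nor labels. The labels give neither the age nor the sex of the mice and do not say whether a sample is 1 animal.

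In the canonical Wnt pathway, a secreted Wnt protein binds a Frizzled receptor and a co-receptor of the LRP family at the cell surface. Without that signal, a destruction complex built on Axin and Apc lets the kinase GSK3β mark β-catenin for degradation. With it, β-catenin accumulates, enters the nucleus and turns TCF and LEF factors into activators of target genes, among them Axin2, Nkd1, Lef1 and Dkk1, which in turn restrain or amplify the pathway. Melanocytes depend on Wnt signaling for their origin from the neural crest. The amount of β-catenin is regulated mainly through protein stability, which transcript counts do not measure.

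A sample held 630757 and 676313 counts over the gene probes in KO 1 and KO 2, and 692284 and 626056 in WT 1 and WT 2. Counts were divided by a factor per sample from 20 housekeeping probes (0.935 to 1.06), and the result is called a scaled count. Background was set per sample at the mean plus 2 SD of the 8 negative control probes, which gave limits of 21.9 and 19.9 raw counts in KO 1 and KO 2 and 17.5 and 17.9 in WT 1 and WT 2. KO 1 was closer to WT 1 (Pearson's r of 0.993 across the log2 values of tested genes) than to KO 2 (0.981). Of the sorted cells' markers, Pax3, Met and Kit, the measured melanocyte genes, lay above background, while Kdr and Flt1, the measured endothelial genes, did not. The 3 melanocyte markers summed to 2993 and 3573 scaled counts in KO samples against 3074 and 3444 in WT samples. Within that list Pax3 was at 1698 and 1576 in KO samples against 1979 and 1926 in WT samples, while Met was higher and Kit slightly lower on average in KO samples. The 8 measured fibroblast and pericyte markers gave a summed scaled count of 297 in KO 1, 162 in KO 2, 277 in WT 1 and 490 in WT 2. The 9 measured leukocyte markers, of which Il3ra, Pik3cd and Plcg2 lay above background, summed to 226 and 217 in KO samples against 253 and 301 in WT samples. Of 4 measured keratinocyte markers Itga6 and Itgb4 lay above background, and the list summed to 944 and 714 in KO samples against 899 and 854 in WT samples. In such bulk samples fewer cells of a type and less RNA per cell cannot be told apart.

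Most intracellular members of the pathway were above background in these cells, and nearly all secreted members were not. Of the 37 members, 12 exceeded the background limit in 2 or more samples, that is 7 of 9 core members, 4 of 6 receptors, 1 of 15 ligands and 0 of 7 secreted inhibitors. Over the whole panel this held for 446 of 750 genes (59.5%), against 32.4% of the members. Another 3 members exceeded the limit in WT 2 only, and 22 did so in no sample. The number above background was 11 when all 4 samples had to exceed the limit. Because nCounter probes differ in efficiency, counts of different genes were set against background only and not against each other.

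**Figure D1:**
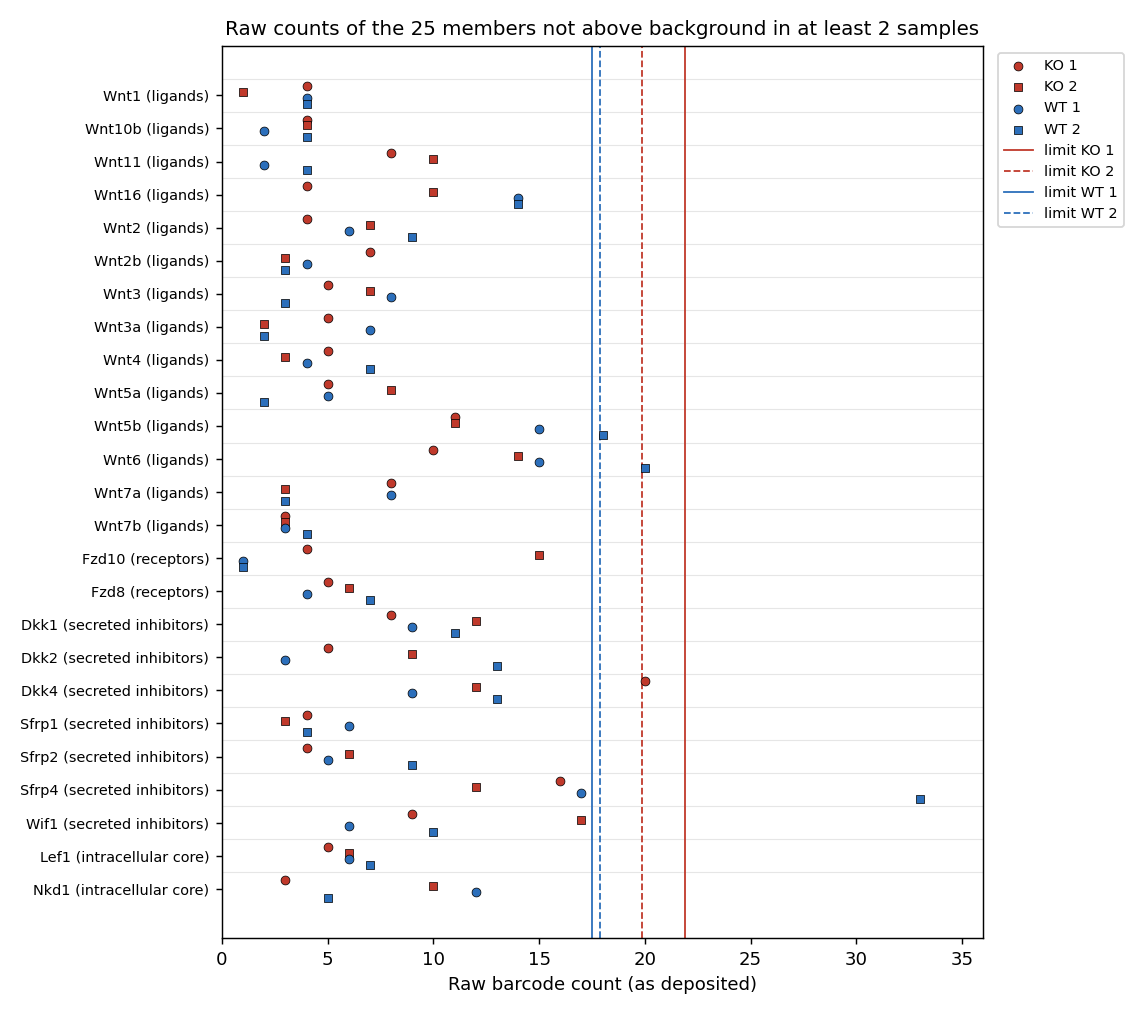
Raw counts (x axis) of the 25 members that were not tested, by gene and group (y axis), with a point per sample and a vertical line for each sample's background limit. Counts range from 1 to 33, and the 3 points past their own limit, of Sfrp4, Wnt6 and Wnt5b, all belong to WT 2.

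Wnt10a, a ligand of the canonical branch, was the 1 ligand transcript above background, and only narrowly so. It was at 24.6 and 23.8 scaled counts in KO samples and at 17.9 and 22.9 in WT samples. Both KO values lay above both WT values, but the raw counts were 23 and 25 in KO samples and 19 and 22 in WT samples, and their 95% exact Poisson intervals, which cover counting error only, overlapped widely (14.6 to 34.5 in KO 1, 11.4 to 29.7 in WT 1). This was a log2 fold change of 0.25 ± 0.30 (SE, edgeR, adjusted p = 0.776), and the direction of the difference was not resolved at this depth.

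The remaining 14 ligand probes gave between 1 and 20 raw counts, where the negative control probes gave between 1 and 19. Wnt6 was at 10 and 14 raw counts in KO samples and at 15 and 20 in WT samples, with only WT 2 above its limit. Wnt5b, a ligand mostly linked to β-catenin independent signaling, was at 11 and 11 in KO samples and at 15 and 18 in WT samples, again past the limit only in WT 2. Both genes had lower raw counts in both KO samples, where they lay below the limit, and in WT 2 they exceeded the highest negative control of that sample (15). No fold change is given, since 3 of 4 values are background readings. Wnt1 and Wnt3a, the classical activators of β-catenin, gave at most 4 and 7 counts in any sample. Wnt5a and Wnt11, which signal largely without β-catenin, gave 5 and 8 (Wnt5a) and 8 and 10 (Wnt11) raw counts in KO samples, against 5 and 2 (Wnt5a) and 2 and 4 (Wnt11) in WT samples. Such counts do not show that a transcript was absent, only that it was not detectable by this assay in 100 ng of RNA.

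Secreted inhibitors were below background in each sample, except Sfrp4 in WT 2. Sfrp4, which encodes a secreted Frizzled-related protein that binds Wnt ligands, was at 16 and 12 raw counts in KO samples and at 17 and 33 in WT samples. WT 2 alone was past its limit and stood apart from the other 3 samples. Of the 5 fibroblast collagens Col1a1, Col1a2, Col3a1, Col5a1 and Col5a2, each was highest in that sample, with a scaled Col3a1 count of 88.7 in KO 1, 16.2 in KO 2, 68.0 in WT 1 and 162 in WT 2. Other markers of the same list were not. Pdgfrb (82.2 in WT 1, 73.9 in WT 2) and Comp were highest in WT 1, and Pdgfra was highest in KO 2. Pdgfra and Comp lay below background in each sample. The part of stromal cells in the Sfrp4 value was not tested. Dkk4, a Dickkopf protein that blocks the LRP co-receptors, was at 20 and 12 raw counts in KO samples and 9 and 13 in WT samples, below the limit in each. Its KO 1 count exceeded the highest negative control of that sample (19), as Wnt6 and Wnt5b did in WT 2. The limit was higher in KO 1 (21.9) than in WT 2 (17.9), so a count of 20 passed only in WT 2. Wif1, a secreted Wnt-binding inhibitor, was at 9 and 17 in KO samples and 6 and 10 in WT samples. Dkk1, Dkk2, Sfrp1 and Sfrp2 did not exceed 13 counts in any sample.

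Among the members not tested were 3 whose promoters hold the letters that TCF and LEF factors recognise, shown here because Tcf7l1 belongs to that factor family. The letters CTTTGAA or CTTTGAT, searched on both strands over the 250 bases before each start site in RefSeq promoters of build GRCm38.p6, were found in the promoters of Dkk1, Wnt11 and Wnt5b, of 25 members present in that table. That was 3 of 32 promoters of members, beside 7.48% of all promoters of the same length. Each stretch below runs 5′ to 3′ along the gene's own strand with the match in capitals, from chr19:30549590-30549630 (Dkk1, minus strand), chr7:98835044-98835084 (Wnt11, plus strand, where the letters read on the opposite strand) and chr6:119449434-119449474 (Wnt5b, minus strand).
Dkk1: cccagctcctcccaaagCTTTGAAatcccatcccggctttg
Wnt11: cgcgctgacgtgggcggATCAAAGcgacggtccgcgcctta
Wnt5b: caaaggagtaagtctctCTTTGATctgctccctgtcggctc
A match describes the sequence only. Raw counts of Dkk1 were 8 and 12 in KO samples and 9 and 11 in WT samples, and those of Wnt11 and Wnt5b are given above, so these 3 genes were not measured well enough to be compared.

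Frizzled receptors, the membrane receptors for Wnt ligands, showed no common direction. Of 4 tested receptors, Fzd9 was higher and Fzd2, Fzd3 and Fzd7 were lower on average in KO samples, none at an unadjusted p under 0.05 (edgeR). Their median log2 fold change was -0.16, beside -0.08 over all 446 tested genes. Fzd2 passed the filter only through its WT values. Among genes above background in all 4 samples, which leaves Fzd2 out, the receptor median was -0.14, beside -0.08 over the 416 genes tested there. In each of the 4 receptors the KO 2 sample held the highest or the lowest value, as it did for 65% of all tested genes.

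Fzd7, a receptor known from stem cells and embryonic patterning, was at 1054 and 760 scaled counts in KO samples and at 1085 and 958 in WT samples. Only KO 2 lay below the WT range, while KO 1 lay inside it. KO over WT, the log2 fold change was -0.17 ± 0.18 (SE, edgeR, adjusted p = 0.753), and it was 0.04 without KO 2 and -0.43 without KO 1.

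Fzd9 was at 28.9 and 63.8 scaled counts in KO samples and at 31.2 and 29.1 in WT samples, so that KO 1 lay just below both WT samples and KO 2 well above them. The counting interval of KO 2 (51.9 to 85.1 raw counts) did not overlap that of KO 1 (17.8 to 39.3), which sets these replicates apart by more than counting error. The log2 fold change of 0.63 ± 0.42 (SE, edgeR, adjusted p = 0.664) rested on that 1 sample and was -0.06 without it.

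Fzd2 had the lowest fold change of the 12 tested members, and its KO values lay below background. It was at 20.3 and 18.1 scaled counts in KO samples and at 26.4 and 37.5 in WT samples, without overlap. Its raw count was 19 in each KO sample, against limits of 21.9 and 19.9, and 28 and 36 in WT samples, against 17.5 and 17.9. The log2 fold change was -0.73 ± 0.32 (SE, edgeR, 95% interval -1.51 to 0.06, adjusted p = 0.569). Since the KO level is a background reading, this fold change is no bound on the difference. Fzd2 was tested only because its WT values exceeded the limit, so its direction and p support nothing about the receptors. Over the 15 alternatives in which it could be tested, its adjusted p lay between 0.303 and 0.978.

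Fzd3 was at 185 and 166 scaled counts in KO samples and at 206 and 180 in WT samples, with overlap between the groups and a log2 fold change of -0.14 ± 0.16 (SE, edgeR, adjusted p = 0.775). Fzd8 and Fzd10 were below background in each sample. Fzd10 gave 4 and 15 raw counts in KO samples and 1 and 1 in WT samples, and without a filter on low counts it and Wnt11 were the 2 of 37 members at an unadjusted p under 0.05, beside 52 of 750 genes, where KO counts up to 15 still lay under their limits.

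**Figure D2:**
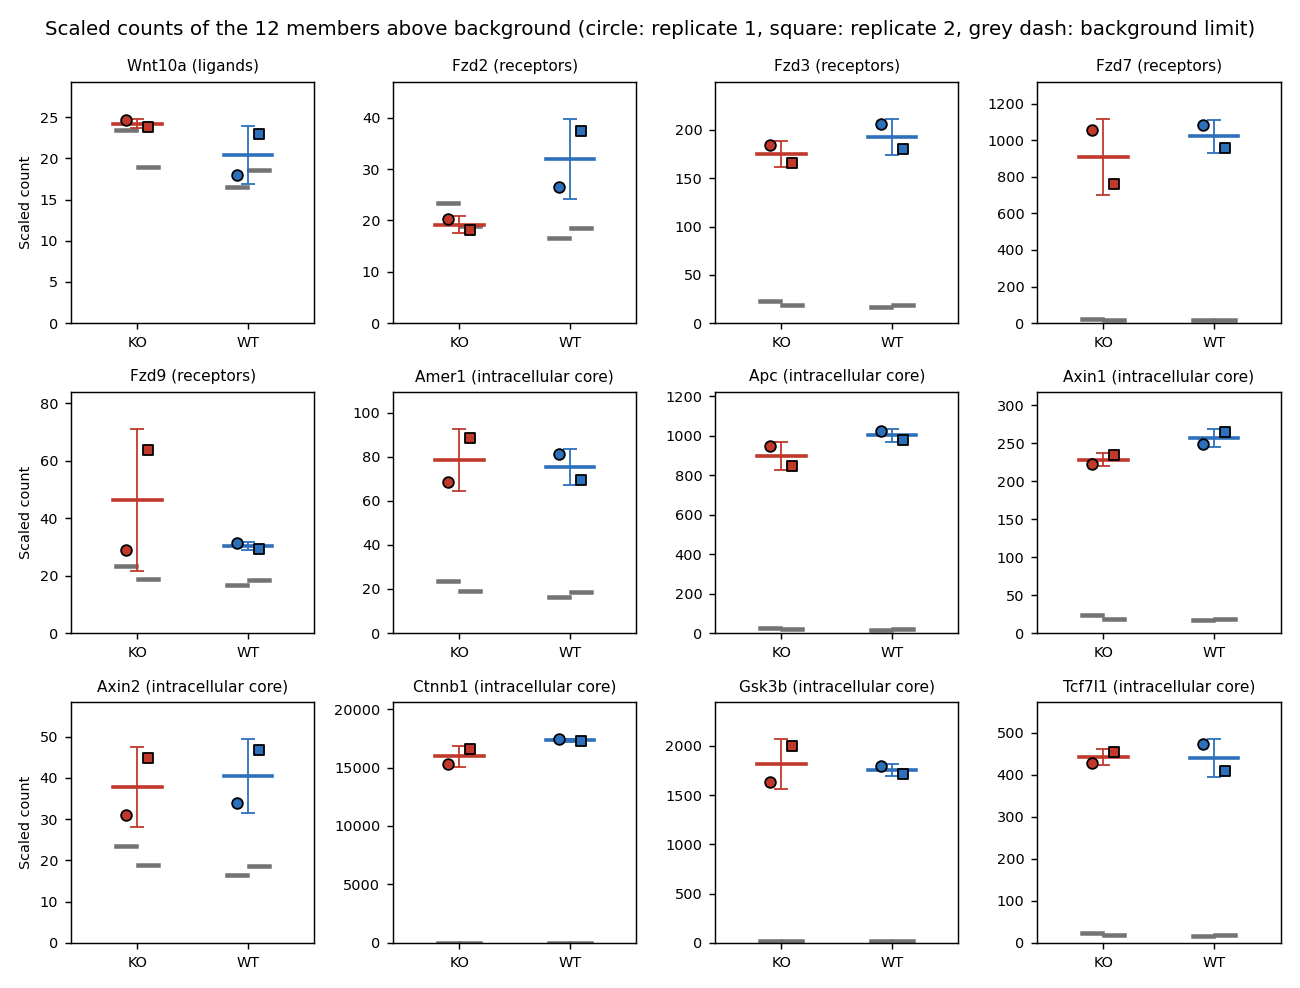
Scaled counts (y axis, from 0, a scale of its own in each panel) of the 12 members above background in KO and WT samples (x axis), with circles for replicate 1 and squares for replicate 2, bars for the group mean ± SD (n = 2) and grey dashes for each sample's background limit. Wnt10a and Fzd2 sit close to those limits, Fzd9 in KO 2 stands at 63.8 above 3 values of 28.9 to 31.2, and no core gene differs past the test.

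Of the 7 tested members of the intracellular core, 3 were higher and 4 lower on average in KO samples, with log2 fold changes from -0.17 to 0.06 and none past the test. Ctnnb1, which encodes β-catenin, was at 15322 and 16592 scaled counts in KO samples and at 17424 and 17235 in WT samples. Both KO samples lay below both WT samples, and the direction turned with positive control scaling (log2 fold change 0.0098). With housekeeping scaling the log2 fold change was -0.12 ± 0.12 (SE, edgeR, 95% interval -0.42 to 0.18, adjusted p = 0.753).

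Genes of the β-catenin destruction complex did not pass the test in either direction. Apc, its scaffold, was at 949 and 847 scaled counts in KO samples and at 1025 and 978 in WT samples, and the log2 fold change was -0.16 ± 0.11 (SE, edgeR, adjusted p = 0.664). Axin1, the limiting scaffold of the complex, was at 222 and 234 in KO samples and at 248 and 265 in WT samples, with a log2 fold change of -0.17 ± 0.13 (SE, edgeR, adjusted p = 0.675). For both genes, as for Ctnnb1, both KO samples lay below both WT samples under housekeeping scaling. Gsk3b, the kinase that phosphorylates β-catenin, was at 1637 and 1999 in KO samples and at 1799 and 1713 in WT samples, so that the KO samples lay on either side of the WT samples (log2 fold change 0.05 ± 0.13, SE, edgeR, adjusted p = 0.915). Amer1, which brings Apc and Axin to the membrane, was at 68.4 and 88.5 against 81.2 and 69.7 in WT samples, also with overlap (log2 fold change 0.06 ± 0.26, SE, edgeR, adjusted p = 0.946).

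Of the 12 tested members, 4 had both KO samples below both WT samples and 1 had both above, beside 31.4% and 11.2% of all tested genes, so these counts were near the background of the panel. The 4 include Fzd2, which passed the filter only through its WT values. Among the 7 tested core members the number with both KO samples below was 3, beside 140 of all 446 tested genes, and again 3 with total counts (160 of 446). It was 0 with TMM, DESeq2 size factors or positive control scaling, beside 80, 79 and 34 of all 446 tested genes. With the latter scalings the median of all tested genes was 0.0011, -0.0037 and 0.05 in place of -0.08. KO 1 held the lowest value in 5 of the 7 core members, beside 24.7% of all tested genes. It was lowest in 5 of 7 with total counts (36.1% of all tested genes), in 4 of 7 by either TMM (21.1%) or DESeq2 size factors (20%), and in 1 of 7 by positive controls (7.17%). The geometric mean of the positive controls was 790 counts in KO 1, 966 in KO 2 and 974 in each WT sample.

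The nuclear end of the pathway and its feedback genes gave no difference past the spread between replicates. Tcf7l1, which encodes TCF3, a TCF factor that mostly represses target genes when β-catenin is low, was at 428 and 455 scaled counts in KO samples and at 472 and 408 in WT samples (log2 fold change 0.0038 ± 0.12, SE, 95% interval -0.29 to 0.29, edgeR, adjusted p = 0.986). The KO values lay between the WT values. Lef1, the β-catenin partner prominent in lymphoid cells and hair follicles, gave 5 and 6 raw counts in KO samples and 6 and 7 in WT samples, below background in each.

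Axin2, a direct β-catenin target whose product feeds back on the pathway and which is commonly read as a sign of pathway activity, was at 31.0 and 44.7 scaled counts in KO samples and at 34.0 and 46.8 in WT samples. Within each group replicate 2 was the higher, and the groups overlapped. Its log2 fold change was -0.08 ± 0.33 (SE, edgeR, 95% interval -0.89 to 0.72, adjusted p = 0.946), which leaves changes of either sign possible. It turned positive without KO 1 (0.15) and without WT 2 (0.16). Nkd1, another feedback inhibitor, gave 3 and 10 raw counts in KO samples and 12 and 5 in WT samples, below background in each.

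**Figure D3:**
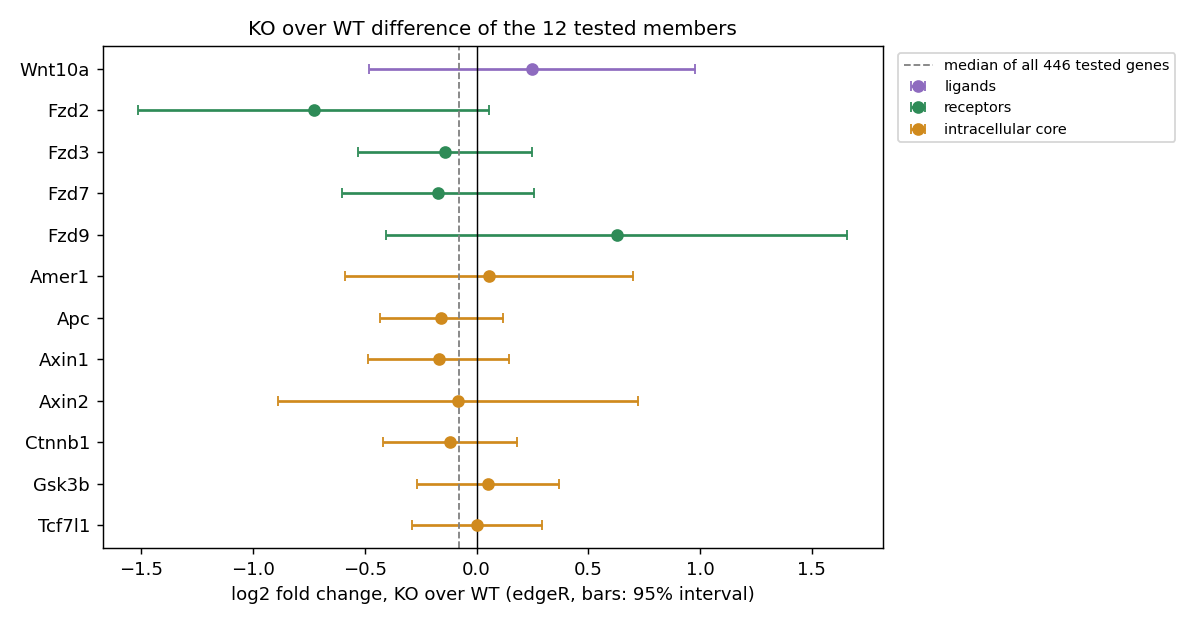
The log2 fold change of KO over WT (x axis, edgeR, housekeeping scaling) with its 95% interval for each of the 12 tested members (y axis), coloured by role, with a solid line at 0 and a dashed line at the median of all 446 tested genes (-0.08). Each interval includes 0, and those of Fzd9, Fzd2 and Axin2 are the widest.

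Of the 12 tested members, 0 passed an adjusted p of 0.05 and 0 an unadjusted p of 0.05 by edgeR's quasi-likelihood test, beside 0% and 7.40% of the 446 tested genes (2.91% higher and 4.48% lower in KO samples at the unadjusted threshold). DESeq2, limma-voom and the methods' t-test also gave 0 and 0. Adjusted p-values of the members ranged from 0.569 to 0.986, and 5 had a higher and 7 a lower average in KO samples. Over these 12 the median log2 fold change was -0.10. The 12 include Fzd2, which passed the filter only through its WT values. Among genes above background in all 4 samples, which leaves Fzd2 out, 5 members were higher and 6 lower. Their median there was -0.081, beside -0.077 over the 416 genes tested. For 9 of the 12 the gap between replicates of 1 group exceeded the difference between groups, beside 329 of all 446 tested genes. The median half-width of the 95% interval was 0.41 on the log2 scale and ranged widely between genes, and an exact two-sided permutation test of 2 against 2 samples cannot give a p below 0.333. Without KO 1, so that KO 2 stands alone for its group, 3 of 12 members (Apc, Fzd7 and Fzd9) had an unadjusted p under 0.05, beside 105 of all 446 tested genes, and none of them passed the adjusted threshold.

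**Figure D4:**
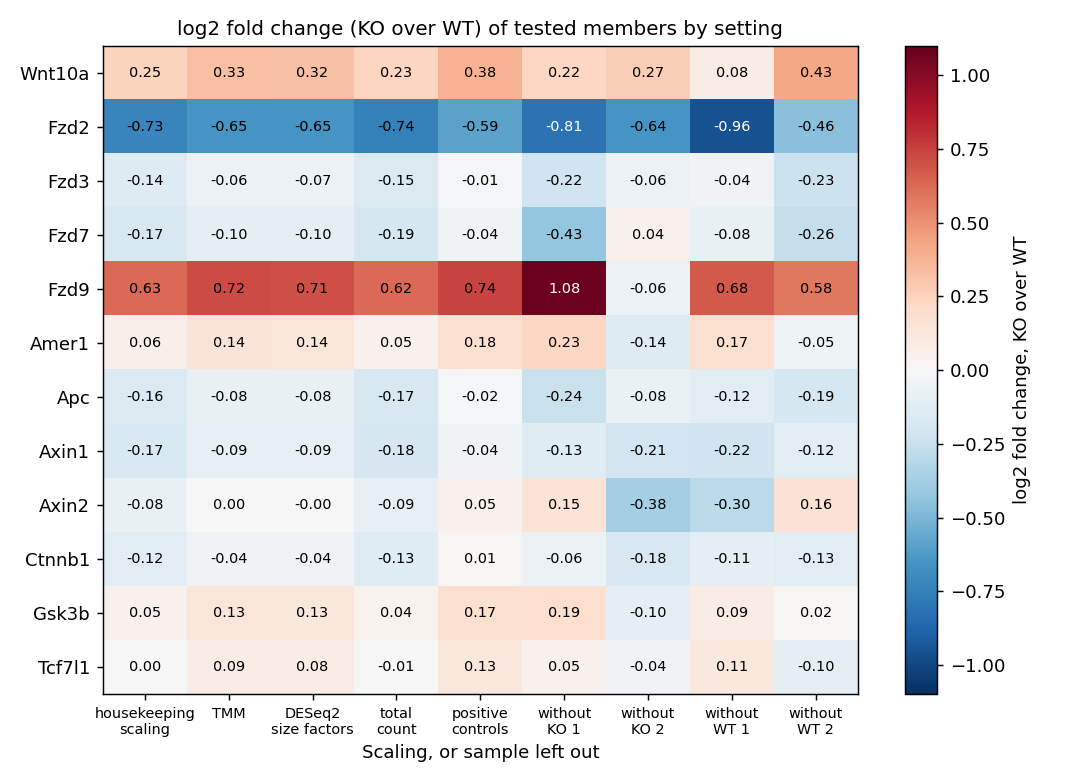
The log2 fold change of KO over WT for the 12 tested members (rows) with 5 scalings and with each sample left out (columns), coloured from blue (lower in KO) to red (higher in KO). Fzd9 is 1.08 without KO 1 and -0.06 without KO 2.

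Other genes of the canonical pathway were mostly lower on average in KO samples, as were most genes of the panel, and none passed adjustment. Of 17 measured partners, from receptor adaptors to co-activators, 14 were tested, 2 of them higher and 12 lower on average in KO samples (median log2 fold change -0.09), beside 298 lower of all 446 tested genes. The split was 7 and 7 with TMM and 8 and 6 with positive control scaling. Bambi, a pseudoreceptor that dampens TGF-β and can promote Wnt signaling, was at 387 and 378 scaled counts in KO samples and at 491 and 448 in WT samples. It was the 1 gene of the 14 at an unadjusted p under 0.05, beside 7.40% of all tested genes. That number was 0 with TMM, DESeq2 size factors or positive controls, beside 32, 32 and 28 of all 446 tested genes. Bambi did not pass adjustment over all genes (log2 fold change -0.30 ± 0.11, SE, edgeR, adjusted p = 0.569). Ep300, a co-activator of β-catenin, was at 924 and 814 against 1001 and 984 in WT samples, Dvl3, a Dishevelled adaptor that relays the Frizzled signal, at 245 and 238 against 288 and 261, and Fbxw7, a ubiquitin ligase subunit, at 142 and 146 against 156 and 184 (edgeR, adjusted p from 0.649 to 0.664).

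Genes known as targets of β-catenin did not share a direction. Of 17 measured, 9 were tested, 4 higher and 5 lower in KO samples, with 0 at an unadjusted p under 0.05 and a median log2 fold change of -0.00058. With positive control scaling the split was 6 and 3. With TMM, DESeq2 size factors or positive controls 1 of the 9 had an unadjusted p under 0.05, beside 32, 32 and 28 of all 446 tested genes. Myc was at 2660 and 2060 scaled counts in KO samples and at 2971 and 2833 in WT samples, without overlap (log2 fold change -0.30, or -0.13 without KO 2 and -0.49 without KO 1). Ccnd1, which encodes cyclin D1 and answers to several other pathways, ran the other way without overlap, at 3322 and 4938 against 2720 and 3219 (log2 fold change 0.48, or 0.16 without KO 2 and 0.73 without KO 1). Without KO 1, Ccnd1 and Myc passed the adjusted threshold (edgeR, adjusted p = 0.0476 for Ccnd1 and 0.0499 for Myc), among 20 genes of the panel that did so. Met, a receptor kinase of the melanocyte lineage, was at 1258 and 1961 against 1052 and 1486, and Id2, an inhibitor of differentiation factors, at 2592 and 3459 against 3892 and 3348, both with overlap (log2 fold changes 0.34 and -0.26, or -0.01 and -0.48 without KO 2 and 0.63 and -0.07 without KO 1, edgeR, adjusted p from 0.569 to 0.664 for these 4 genes with all samples).

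**Figure D5:**
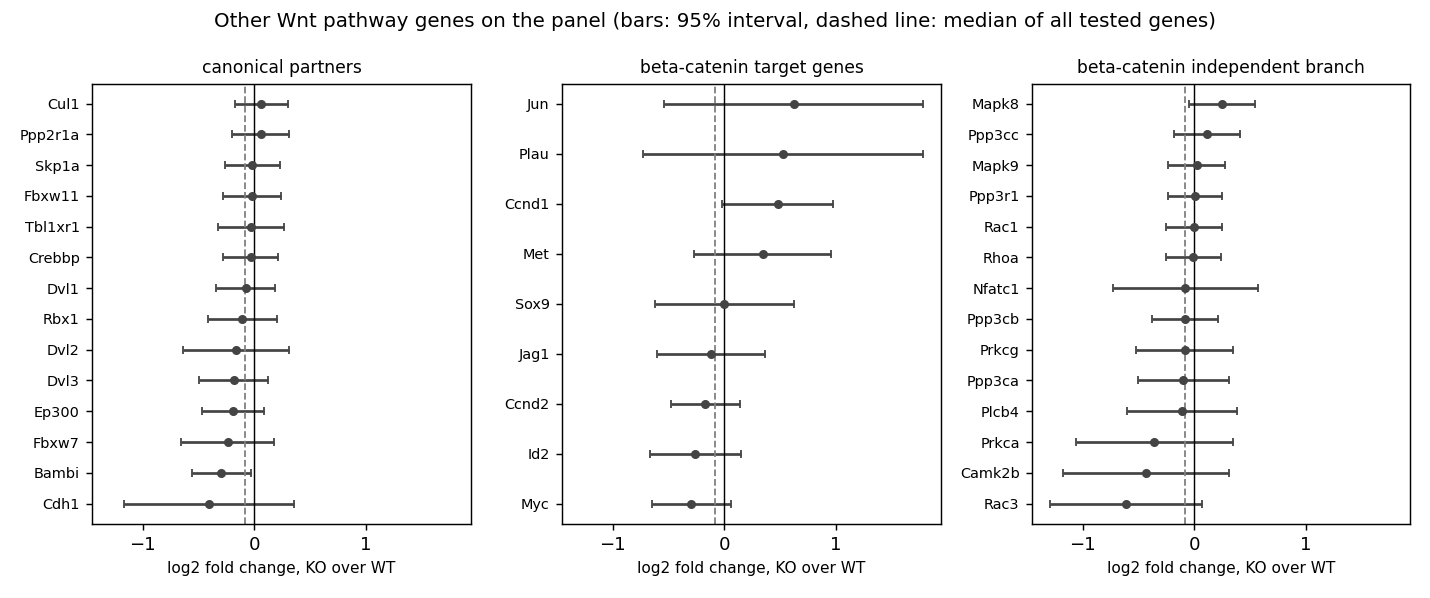
The log2 fold change of KO over WT (x axis) with its 95% interval for the tested genes of 3 further Wnt pathway lists (y axis), with a solid line at 0 and a dashed line at the median of all tested genes. Bambi has an interval that ends below 0, and the other genes have intervals that include 0.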

How the data were processed

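Total RNA of sorted CD45- cells was counted by the authors on the nCounter Flex System with the Mouse PanCancer Pathways panel, and the deposited raw counts per probe (750 gene, 20 housekeeping, 8 negative and 6 positive control probes) were used as they stand. The authors also deposited a scaled signal with low values set to a floor, whose scaling is not described in the sources used here and which served as an alternative (log2, pseudocount of 1, limma 3.58.1). The authors tested at an unadjusted p in nSolver.

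Scaling factors came from the geometric mean of the 20 housekeeping probes, each of which averaged 100 counts or more. The 446 genes above background in at least 2 samples entered edgeR's two-sided quasi-likelihood test (version 4.0.16, R 4.3.3) with offsets from those factors, genotype alone in the model and 2 residual degrees of freedom. Adjusted p-values follow Benjamini and Hochberg over the 446 genes. SE was derived from the fold change and its F statistic. The test shares information on variance across the tested genes. SE, intervals and p-values therefore do not rest on each gene's own replicates alone. The fit was also run on simulated data with planted changes and a spread taken from these samples, and no result given here rests on that run. No label states that samples come from separate animals, so p-values measure the spread between these samples. Alternatives were 4 other scalings, DESeq2 1.42.0, limma-voom, the methods' t-test on scaled counts in log2, other filters, background subtraction, a replicate block and leaving out each sample.

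Members, lists and tests were chosen with earlier results of these data known. Every tested member, the members above background in 1 sample and up to 4 genes of lowest p per list were to be named. Other genes, such as Fzd10, Wnt11, Dkk4 and Col3a1, were chosen after their values were seen. All 37 probes matched RefSeq (GRCm38.p6) by accession, and the files name no genome build. Some genes of the β-catenin independent list are not reported here.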

Additional observations from a re-analysis of the deposited data

How the results depend on the processing

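No member passed an adjusted p of 0.05 in any of the alternatives run. Over all tested genes the count past it was 0 by edgeR, 3 by DESeq2, 1 with a replicate block and 0 to 20 without 1 sample, the 20 without KO 1. Members at an unadjusted p under 0.05 numbered 0 (33 of all 446 genes), against 2 without a filter (52 of 750), 1 with the deposited scaled signal (34 of 446) and 0 to 3 without 1 sample (12 to 105 of 446). The median log2 fold change of the tested members, -0.10, was -0.017 with TMM, -0.023 with DESeq2 size factors and 0.028 with positive controls. That of receptors, -0.16, was -0.079 with TMM, -0.083 with DESeq2 size factors, -0.024 with positive controls and -0.059 without a filter. That of the core, -0.08, was 0.0017 with TMM, -0.0039 with DESeq2 size factors and 0.046 with positive controls. Leaving out 1 sample gave medians of -0.11 to -0.0078 for members, -0.33 to -0.06 for receptors and -0.14 to 0.047 for the core. The sign turned for Axin2 with TMM (0.0017) and positive controls (0.05), for Ctnnb1 with positive controls (0.0098) and for Tcf7l1 with total counts (-0.0083). Without 1 sample it turned for Amer1 (-0.14 to 0.23), Axin2 (-0.38 to 0.16), Fzd7 (-0.43 to 0.045), Fzd9 (-0.064 to 1.08), Gsk3b (-0.10 to 0.19) and Tcf7l1 (-0.10 to 0.11). Of 199 alternative values for single members, 186 had the direction and side of the threshold reported and 13 turned. Same-numbered KO and WT samples share only a number (correlation of deviations 0.0397), and with it as a replicate block 0 members passed either threshold. Members above background were 11 or 12 with other limits. The causes of these shifts were not tested.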

Other observations

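The branch of Wnt signaling that works without β-catenin, through small GTPases, JNK kinases, calcium and NFAT, had 19 measured genes on the panel, 14 of them above background in at least 2 samples. Of these, 4 were higher and 10 lower on average in KO samples and 0 had an unadjusted p under 0.05 (edgeR), with a median log2 fold change of -0.08, the same as over all tested genes. The split was 7 and 7 with TMM and 11 higher and 3 lower with positive control scaling. With TMM, DESeq2 size factors or positive controls 1 of the 14 had an unadjusted p under 0.05, beside 32, 32 and 28 of all 446 tested genes. Mapk8, which encodes the kinase JNK1, was at 404 and 449 scaled counts in KO samples and at 340 and 380 in WT samples (log2 fold change 0.25 ± 0.12, SE, edgeR, adjusted p = 0.569). Camk2b, a calcium-dependent kinase, was at 55.6 and 37.1 against 65.2 and 59.3 in WT samples (log2 fold change -0.43, or -0.16 without KO 2 and -0.74 without KO 1), and Prkca, which encodes protein kinase C alpha, at 72.7 and 71.4 against 73.7 and 111 in WT samples (log2 fold change -0.36, or -0.03 without WT 2 and -0.63 without WT 1).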
